A study of Mus musculus with 16 samples.

Results

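Tex10-deficient spermatogonia and MI spermatocytes were compared by RNA sequencing, to describe which transcripts fall and which rise as germ cells deficient in this gene enter meiosis. The comparison rests on 4 of the 16 libraries of the series, 2 of Tex10-deficient spermatogonia and 2 of Tex10-deficient MI spermatocytes, chosen by the sample titles. All came from testes of C57BL/6J males aged 8 weeks, as bulk polyA libraries. The Tex10-deficient males had 1 floxed and 1 null allele of Tex10 (Tex10f/-) together with Stra8iCre, a Cre recombinase under the Stra8 promoter, which is active in spermatogonia, so that the floxed allele is lost within the germ line and somatic cells keep it. The wild-type counterparts, labelled wildtype with no other allele named, gave 2 libraries of spermatogonia and 2 of MI spermatocytes, used for comparison. The method by which the cells were separated is not stated in the labels used here, nor is it stated whether replicate libraries were made from different animals. The p-values thus measure only the spread between samples that may be technical replicates.

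Entry into meiosis begins when retinoic acid induces Stra8 in differentiating spermatogonia, which then copy their DNA a last time and become spermatocytes. In meiotic prophase, programmed DNA breaks are made and repaired while homologous chromosomes are joined by the synaptonemal complex, and the X and Y chromosomes, largely unpaired, are silenced. From the pachytene stage on, spermatocytes switch to a program of testis-specific genes that also prepares for the sperm tail, the acrosome and the storage of mRNA, many of whose products are used only after meiosis. The nuclear protein made from Tex10 works in a complex with Pelp1, Wdr18, Senp3, Las1l, Nol9 and Mdn1 that takes part in ribosome maturation.

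The labels disagree with themselves for 3 of the 4 Tex10-deficient libraries, whose title and cell type field name different cells. By Spearman correlation across genes, the closest wild-type library was of the titled type in 4 of 4 cases (rho 0.935 to 0.951), and the titles were used. The 2 libraries of each Tex10-deficient group correlated with a rho of 0.939 in either cell type, and libraries of the different types with a rho of 0.535 to 0.609, over genes that are not independent replicates. Between 10714 and 11306 genes per library reached 1 FPKM (fragments scaled to transcript length and to the mapped fragments of the library, from which a 1 added before deposit was subtracted). Levels are given for replicates 1 and 2, in spermatogonia and then in MI spermatocytes. Read numbers are unknown, and a level of 0 is a listed value. Tex10 (XLOC_015051, chromosome 4, 48430858 to 48473459, minus strand, mm10) stood at 13.6 and 18.96 FPKM in Tex10-deficient spermatogonia and 10.9 and 14.6 in Tex10-deficient MI spermatocytes. In the wild type the gene stood at 55.4 and 50.02 FPKM in spermatogonia and 63.1 and 57.5 in MI spermatocytes, all above the Tex10-deficient ones. The remaining level did not differ detectably between the Tex10-deficient cell types (log2 change −0.32, SE 0.31, limma adjusted p = 0.4), and the values cover the whole gene, including any exons outside the deleted part.

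A large share of genes differed between the 2 Tex10-deficient cell types. Of 13099 genes tested with limma on log2(FPKM + 1), 6711 (51.2%) were called (adjusted p under 0.05, Benjamini-Hochberg), 3477 of them higher (26.5%) and 3234 lower (24.7%) in MI spermatocytes. The median change was 1.96 among the rises, −1.42 among the falls and −0.06 over all genes tested, and the log2 scale with 1 added understates the change of genes at low levels. Rises were larger, with 385 of at least 4 on the log2 scale against 35 falls of that size. In 37.1% of genes tested both MI libraries lay above both spermatogonia libraries, and in 38.5% both lay below. In bulk samples, fewer cells of a type and less RNA per cell cannot be told apart, and this holds for every change below. Scaling by median of ratios shifted the median of all genes to −0.25 and quantile normalization to −0.24, with 3100 rises and 3973 falls, and 3205 rises and 3992 falls.

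Lypd4, a gene of the Ly6 protein family, had the largest rise of the genes tested, and stood at 1.28 and 0.702 FPKM in spermatogonia and 142 and 155 in MI spermatocytes (log2 change 6.25, SE 0.52, limma adjusted p = 4.5e-06). Ropn1l, a ropporin-like protein of the sperm tail, went from 5.80 and 5.64 to 497 and 339 FPKM (log2 change 5.94, SE 0.50), and Atp8b3, a lipid flippase of the sperm head, from 9.05 and 10.7 to 728 and 554 (log2 change 5.88, SE 0.46). For each of the 3, the lower MI library lay far above the higher spermatogonia library. Other large rises were in the ubiquitin ligase gene March11 (5.84), the flagellar gene Lrrc46 (5.84), Sept12, a septin of the sperm annulus (5.73), Pabpc6, a poly(A)-binding protein (5.72), and Tsnaxip1 (5.69). The fructose transporter gene Slc2a5 (5.67) and the nuclear pore-related genes Pom121l12 (5.72) and Pom121l2 (5.62) were of similar size. The largest falls included replication-type core histone genes and genes of leukocytes. Hist1h2ak stood at 713 and 768 FPKM in spermatogonia and 15.8 and 3.56 in MI spermatocytes (log2 change −6.40, SE 0.58, limma adjusted p = 5e-06), Hist1h2ai, Hist1h4j and Hist1h2an fell by 4.74 to 5.80, and since near-identical histone copies share reads, the single members are uncertain. The leukocyte genes Cd52, Lcp1, Lyz2, Rgs1, Laptm5 and Il2rb fell with them and are described with the immune markers.

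**Figure D1:**
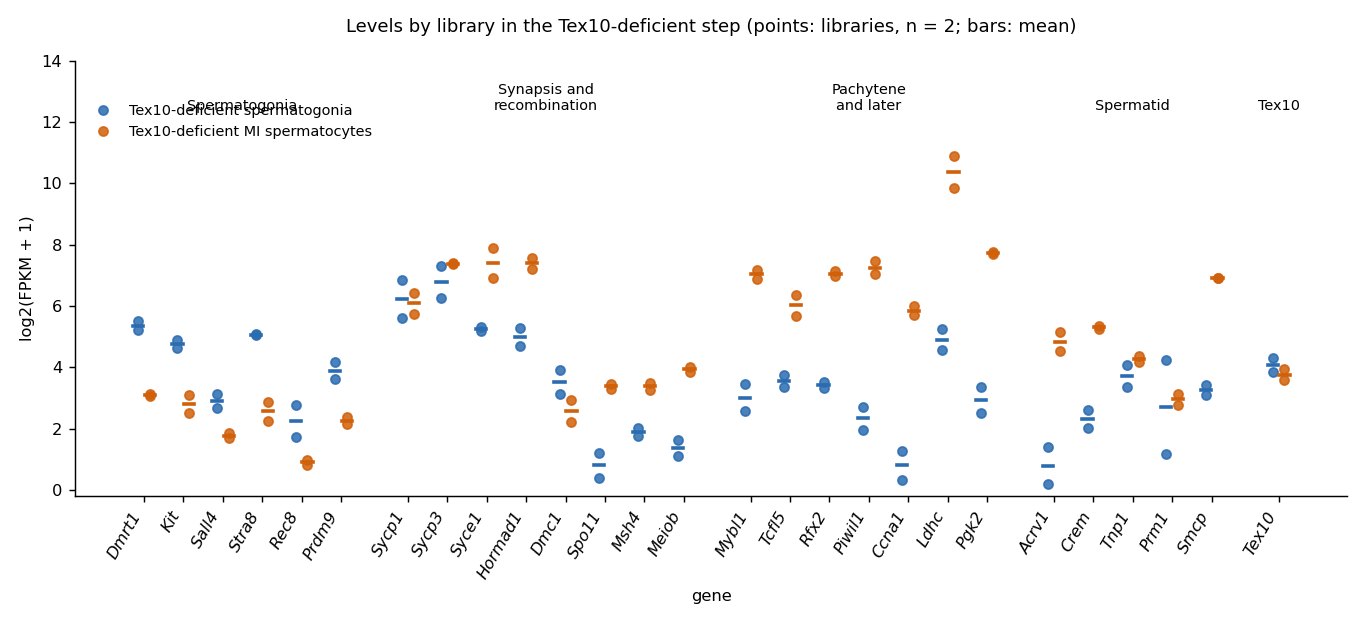
Levels of 27 genes in the 4 Tex10-deficient libraries, as log2(FPKM + 1), in groups headed by stage. The group headed spermatogonia also holds Stra8 of meiotic entry and Rec8 and Prdm9, which are listed as meiotic prophase markers in the text. Each point is a library, blue for spermatogonia and orange for MI spermatocytes, and each short bar is the mean of 2. Dmrt1, Kit and Stra8 are higher in both spermatogonia libraries, the points of Sycp1, Prm1 and Tex10 overlap, and Mybl1, Ccna1, Ldhc and Pgk2 are higher in both MI libraries.

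Most called genes of spermatogonia and of the retinoic acid response were lower in Tex10-deficient MI spermatocytes. Dmrt1, a transcription factor that keeps spermatogonia from entering meiosis, stood at 44.2 and 36.2 FPKM in spermatogonia and 7.37 and 7.69 in MI spermatocytes (log2 change −2.26, SE 0.38, limma adjusted p = 0.00028). Kit, the receptor of differentiating spermatogonia, stood at 24.1 and 28.8, then 4.71 and 7.59 FPKM (log2 change −1.96, SE 0.36, limma adjusted p = 0.00054). Stra8 (XLOC_017119, chromosome 6, 34920163 to 34939344, plus strand), which switches on the meiotic program, stood at 33.02 and 32.2, then 6.27 and 3.80 FPKM (log2 change −2.51, SE 0.32, limma adjusted p = 3.9e-05). In all 3 the groups did not overlap, and the higher MI library held less than the lower spermatogonia library. Of 14 spermatogonia markers tested, 9 fell and 0 rose (median −1.54), where 24.7% of all genes fell. The retinoic acid receptor gene Rarg (−2.09) and the cyclin gene Ccnd2 (−2.12) were among the 9, and without spermatogonia replicate 1 or MI replicate 1 the count was 5. Of 20 genes of retinoic acid signalling and meiotic entry, 12 fell and 1 rose (median −1.34), with 7 falls without MI replicate 1. The X-linked genes Esx1 (−2.34) and Taf7l (−2.50) fell, and the single rise was Aldh1a2, an enzyme that makes retinoic acid (8.94 and 13.8 FPKM in spermatogonia and 50.1 and 25.9 in MI spermatocytes, log2 change 1.61, SE 0.38). It was not called without MI replicate 1 (adjusted p = 0.0523).

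Most called transcripts for DNA replication were lower as well. Mcm2, a subunit of the replicative helicase, stood at 46.7 and 41.2 FPKM in spermatogonia and 3.99 and 7.47 in MI spermatocytes (log2 change −2.79, SE 0.37, limma adjusted p = 4.9e-05), without overlap. Of 35 replication genes, 21 fell and 2 rose (median −1.15), where 24.7% of all genes fell and 26.5% rose. Mcm4 fell by 2.41, Rrm2, a subunit of ribonucleotide reductase, by 2.30, and Pold1, the catalytic subunit of a replicative polymerase, by 2.16. The sliding clamp gene Pcna did not follow them, at 104 and 121, then 135 and 109.7 FPKM in overlapping groups (log2 change 0.12, SE 0.25, limma adjusted p = 0.72). The rises were Gins1 (1.41) and Gins4 (0.65), subunits that bind the same helicase, and both calls depended on single libraries. Gins1 was not called without spermatogonia replicate 1 (adjusted p = 0.0685) or without MI replicate 1 (adjusted p = 0.127), and Gins4 without spermatogonia replicate 1 (adjusted p = 0.124) or without spermatogonia replicate 2 (adjusted p = 0.126) or without MI replicate 1 (adjusted p = 0.28) or in 8 of the other alternatives.

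The shares of cell cycle genes called were near those of all genes, of which 26.5% rose and 24.7% fell. Ccna2, the cyclin A of dividing cells, stood at 39.1 and 48.6 FPKM in spermatogonia and 10.4 and 13.5 in MI spermatocytes (log2 change −1.79, SE 0.47, limma adjusted p = 0.0064), and Ccna1, the cyclin A of the male meiotic divisions, at 0.258 and 1.42, then 63.2 and 51.1 FPKM (log2 change 5.05, SE 0.49, limma adjusted p = 6.1e-06). Both spermatogonia libraries thus held more Ccna2 than Ccna1 and both MI libraries more Ccna1 than Ccna2, in units scaled by transcript length. Spdya, an activator of CDK2, rose from 4.58 and 8.68 to 118 and 171 FPKM (log2 change 4.29, SE 0.48), Fbxo43, an inhibitor of the anaphase-promoting complex in meiosis, by 3.70, and the kinase gene Aurka by 2.75. Ccnd1, the cyclin of the G1 phase, fell by 2.15. In all, 12 of 37 cell cycle genes rose and 9 fell (median 0.32), the falls numbering 5 without spermatogonia replicate 1 or 2 or MI replicate 1.

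Meiotic prophase genes did not move as a block. The markers of this stage had 8 rises and 3 falls among 21 tested (median 0.60), where 26.5% of all genes rose and 24.7% fell, and under quantile normalization 5 falls and a median of −0.51. Sycp3, of the lateral element of the synaptonemal complex, stood at 75.8 and 158 FPKM in spermatogonia and 163 and 169 in MI spermatocytes (log2 change 0.60, SE 0.44, limma adjusted p = 0.27). Sycp1, of its transverse filaments and named after its values were seen, stood at 48.4 and 114, then 52.7 and 85.4 FPKM (log2 change −0.15, SE 0.49, limma adjusted p = 0.82), so that neither was called and the Sycp1 groups overlapped. The spermatogonia libraries already held both transcripts at 48.4 FPKM or more, the higher value of each in replicate 2. Of 11 synaptonemal complex genes, 3 rose and 2 fell (median 0.60), with 0 falls without spermatogonia replicate 1 or 2. Hormad1, an axis protein that monitors pairing, stood at 24.9 and 38.2, then 148 and 190.0 FPKM (log2 change 2.41, SE 0.46, limma adjusted p = 0.00074) and Syce1, of the central element, at 35.6 and 38.6, then 239 and 119 (log2 change 2.16, SE 0.42, limma adjusted p = 0.00089). In both the MI libraries lay above the spermatogonia libraries. Sycp2, a partner of Sycp3, stood at 23.98 and 46.1, then 81.7 and 189 FPKM (log2 change 1.87, SE 0.56), and was not called without spermatogonia replicate 1 (adjusted p = 0.121) or without MI replicate 2 (adjusted p = 0.132).

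Among genes that make the meiotic DNA breaks, most calls were falls, while the nuclease gene itself rose. Prdm9, the histone methyltransferase that places the breaks, stood at 11.2 and 17.2 FPKM in spermatogonia and 4.22 and 3.44 in MI spermatocytes (log2 change −1.63, SE 0.40, limma adjusted p = 0.0042), and Mei1, needed for break formation, fell by 1.38. Spo11 (XLOC_011998, chromosome 2, 172977700 to 172993576, plus strand), which cuts the DNA, stood at 0.323 and 1.33, then 10.003 and 8.91 FPKM (log2 change 2.57, SE 0.46, limma adjusted p = 0.00044). The MI libraries held more Spo11 than either spermatogonia library, and less Prdm9. Of all genes 24.7% fell and 26.5% rose. Of 10 genes of break formation, 5 fell and 1, Spo11, rose (median −0.88), with 3 falls without spermatogonia replicate 2 or MI replicate 1. With a pseudocount of 0.1 Prdm9 was not called (log2 change −1.84, limma adjusted p = 0.118). Rec8, the cohesin subunit of early meiosis, stood at 2.35 and 5.83, then 0.994 and 0.769 FPKM (log2 change −1.35, SE 0.48, limma adjusted p = 0.03). It was not called without spermatogonia replicate 2 (adjusted p = 0.244) or without MI replicate 1 (adjusted p = 0.0809) or without MI replicate 2 (adjusted p = 0.109).

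Repair and crossover genes held calls in both directions, with shares for strand exchange and repair near the 26.5% of rises and 24.7% of falls among all genes. Of 27 genes of strand exchange and repair, 9 rose and 8 fell (median −0.04), the falls being 5 without spermatogonia replicate 2 or MI replicate 2. Meiob, which binds single-stranded DNA in meiosis, stood at 2.09 and 1.15 FPKM in spermatogonia and 13.5 and 15.2 in MI spermatocytes (log2 change 2.57, SE 0.44, limma adjusted p = 0.00037), and its partner Spata22 rose as well. Psmc3ip, a cofactor of the meiotic recombinase, rose by 2.43. Atm, the kinase that responds to DNA breaks, fell by 1.92. Of 16 crossover genes, 6 rose and 2 fell (median 0.78). Cntd1, a cyclin-like crossover factor, stood at 6.17 and 11.6, then 76.4 and 65.9 FPKM (log2 change 2.92, SE 0.44, limma adjusted p = 0.00014), and Slx4, a scaffold of nucleases that resolve recombination intermediates, at 7.73 and 10.8, then 108 and 80.02 (log2 change 3.21, SE 0.48, limma adjusted p = 0.00013). Tex11, an X-linked crossover gene, went the other way, at 60.9 and 94.5, then 8.05 and 17.4 FPKM (log2 change −2.58, SE 0.44, limma adjusted p = 0.00033), with both MI libraries below both spermatogonia libraries.

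Cohesin and chromosome segregation genes had 2 rises and 10 falls among 17 (median −0.95), and 6 falls without spermatogonia replicate 2 or MI replicate 1. Of all genes 26.5% rose and 24.7% fell, and the rises of the telomere and silencing lists below lay near that share. The general subunits Smc1a, which is X-linked (−2.58), Smc3 (−1.63) and Rad21 (−1.43) fell. The rises were Stag3, the meiotic subunit (1.36), and Meikin, which holds sister kinetochores together in the first division. Meikin stood at 0.386 and 0.354 FPKM in spermatogonia and 9.92 and 8.89 in MI spermatocytes (log2 change 2.92, SE 0.38, limma adjusted p = 3.8e-05), with both spermatogonia libraries under 1 FPKM. Stag3 was not called without spermatogonia replicate 1 (adjusted p = 0.18) or without MI replicate 1 (adjusted p = 0.0823) or without MI replicate 2 (adjusted p = 0.0926). Telomere attachment genes had 3 rises and 1 fall among 12 (median 0.45), with 1 rise without spermatogonia replicate 1 or MI replicate 1. Genes of the silencing of unpaired chromosomes had 5 rises and 9 falls among 22 (median −0.39), with 3 rises without spermatogonia replicate 1 or MI replicate 2 and 5 falls without spermatogonia replicate 2. Atr, the kinase of that silencing, rose by 1.60 and Mdc1, which spreads it over the chromosome, by 2.08, and under quantile normalization Atr was not called (log2 change 0.79, limma adjusted p = 0.0708).

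**Figure D2:**
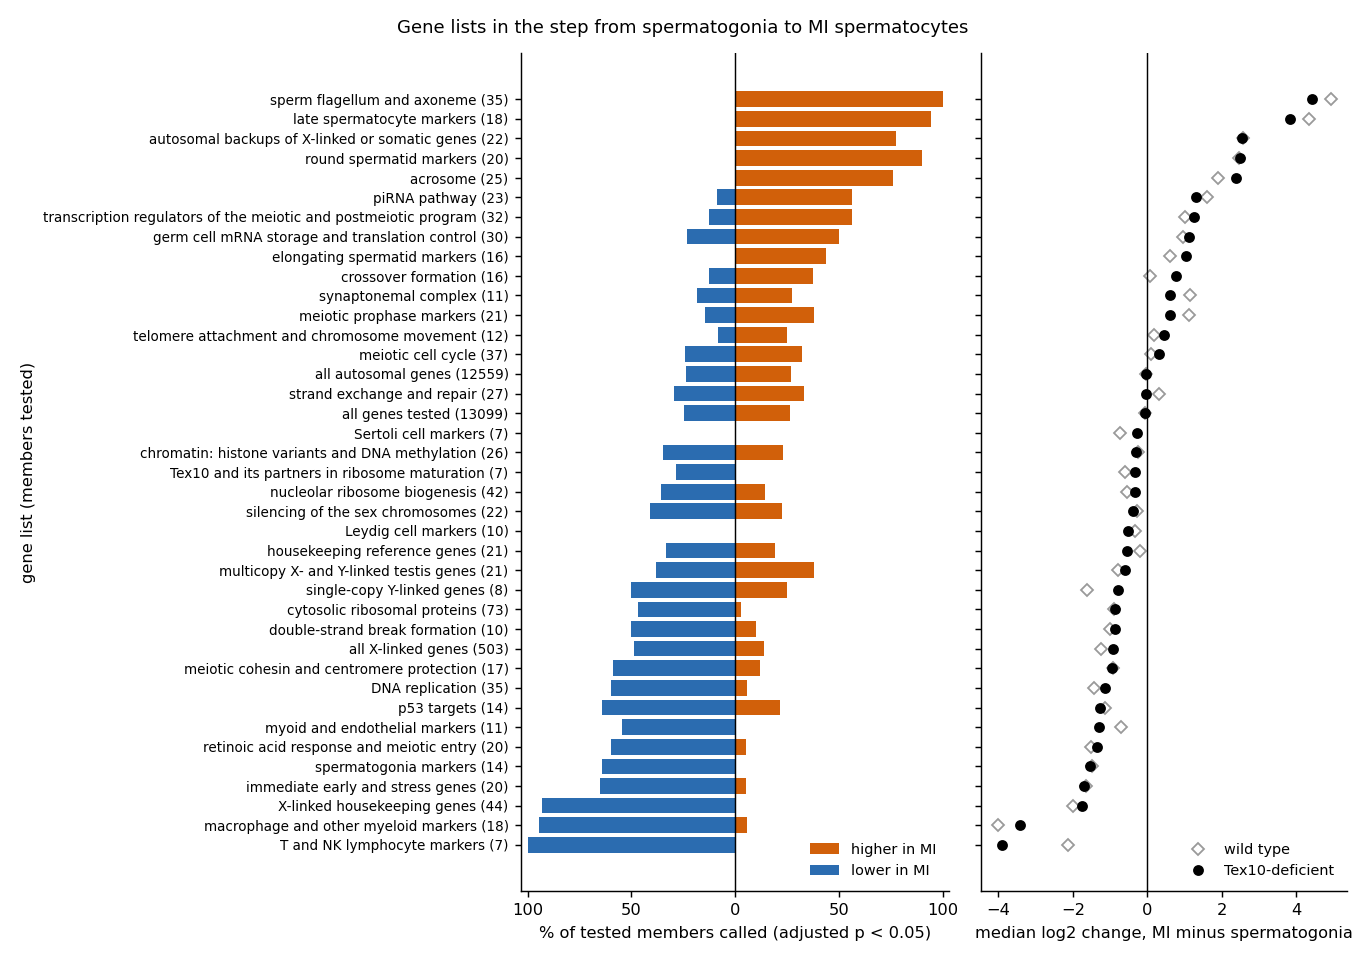
Gene lists in the step from spermatogonia to MI spermatocytes, with the number of members tested in parentheses. Bars on the left give the percentage of tested members called higher (orange) or lower (blue) without Tex10 at a limma adjusted p under 0.05, and symbols on the right the median log2 change without Tex10 (filled circles) and in the wild type (open diamonds). Sperm tail and late spermatocyte genes lead the rises, immune markers and X-linked housekeeping genes the falls, and the lists of synapsis, recombination and crossover hold bars on both sides.

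Most called transcription regulators of the meiotic program were higher in MI spermatocytes, where 26.5% of all genes rose and 24.7% fell. Mybl1 (XLOC_000668, chromosome 1, 9667415 to 9700209, minus strand), the MYB-family factor that turns on pachytene genes, stood at 4.96 and 9.88 FPKM in spermatogonia and 117 and 144 in MI spermatocytes (log2 change 4.02, SE 0.49, limma adjusted p = 2.4e-05). Hsf5, a heat shock factor family member of spermatocytes, stood at 5.60 and 8.08, then 219 and 222 FPKM (log2 change 4.84, SE 0.51, limma adjusted p = 9.8e-06), and Brdt, a testis bromodomain protein, at 22.96 and 38.6, then 335 and 294 (log2 change 3.35, SE 0.49, limma adjusted p = 0.0001). In all 3 the lower MI library lay far above the higher spermatogonia library. Rfx4, of the RFX family (3.83), and Gtf2a1l, the germ cell form of the factor TFIIA (4.60), rose as well. Of 32 transcription regulators 18 rose and 4 fell (median 1.26), and 8 fell under median-of-ratios scaling and 7 under quantile normalization.

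Late spermatocyte markers had 17 rises and 0 falls among 18 (median 3.83), where 26.5% of all genes rose. Ldhc (XLOC_018775, chromosome 7, 46861203 to 46878142, plus strand), the germ cell lactate dehydrogenase, stood at 22.5 and 37.1 FPKM in spermatogonia and 1922 and 931 in MI spermatocytes (log2 change 5.48, SE 0.49, limma adjusted p = 5e-06). Hspa2, a chaperone needed for desynapsis, stood at 32.01 and 46.2, then 1384 and 688 FPKM (log2 change 4.63, SE 0.45, limma adjusted p = 6.2e-06), and Pgk2 (XLOC_009465, chromosome 17, 40207015 to 40208640, minus strand), the germ cell phosphoglycerate kinase, at 4.74 and 9.20, then 214 and 207 (log2 change 4.79, SE 0.47, limma adjusted p = 6.6e-06). The groups lay well apart in all 3, while the 2 MI libraries themselves differed for Ldhc and Hspa2, replicate 1 being the higher.

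Promoter sequences are shown for 3 of the rising genes, to let the factor families above be read against the DNA. They are the 300 bases from 250 before to 50 after a RefSeq start site, on the gene's strand 5′ to 3′ (RefSeq, GRCm38.p6). Capitals mark the MYB motif GGCAGTT in Pgk2 and Piwil1 and the RFX motif GTTGCCAT in Tekt1, a filament protein of the tail's microtubules that was chosen after its values and its motif were seen. Each window shown holds a motif, so the 3 do not stand for the rising genes at large. Another window of Tekt1 and both windows of Ldhc held neither motif and are not shown.
Pgk2, chr17:40208560-40208859, minus strand: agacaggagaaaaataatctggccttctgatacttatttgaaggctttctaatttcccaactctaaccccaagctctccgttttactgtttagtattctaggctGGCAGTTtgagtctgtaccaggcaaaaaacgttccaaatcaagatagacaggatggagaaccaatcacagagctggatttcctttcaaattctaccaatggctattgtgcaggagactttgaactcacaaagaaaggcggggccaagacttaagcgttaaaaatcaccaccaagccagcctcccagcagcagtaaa
Piwil1, chr5:128735996-128736295, plus strand: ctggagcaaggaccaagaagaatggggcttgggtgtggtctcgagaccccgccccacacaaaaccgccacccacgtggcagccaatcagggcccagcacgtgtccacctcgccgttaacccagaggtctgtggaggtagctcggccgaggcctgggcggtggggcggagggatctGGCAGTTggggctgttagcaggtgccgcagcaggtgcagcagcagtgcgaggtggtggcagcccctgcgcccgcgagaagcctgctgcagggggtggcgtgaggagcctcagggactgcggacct
Tekt1, chr11:72361833-72362132, minus strand: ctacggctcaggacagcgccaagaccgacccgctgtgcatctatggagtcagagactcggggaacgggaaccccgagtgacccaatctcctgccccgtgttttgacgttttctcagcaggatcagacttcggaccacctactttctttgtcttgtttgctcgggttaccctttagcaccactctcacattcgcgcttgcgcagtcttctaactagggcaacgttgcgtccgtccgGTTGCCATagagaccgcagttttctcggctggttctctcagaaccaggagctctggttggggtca
The motif begins 146 bases before the start site in Pgk2, 75 before it in Piwil1 and 15 before it in Tekt1. Tekt1 stood at 4.10 and 1.97 FPKM in spermatogonia and 156 and 124 in MI spermatocytes.

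Searched on both strands, GGCAGTT was present in 4.12% of all 32851 promoters of the table, in 5.70% of the promoters of genes that rose in Tex10-deficient MI spermatocytes, in 3.15% of those of genes that fell and in 3.37% of those of genes not called. Among rises of at least 4 on the log2 scale it was present in 9.91%. The RFX motif GTTGCCAT was present in 1.35% of all promoters, 2.61% of those of rising genes, 0.60% of those of falling genes and 6.41% of those of genes that rose by at least 4. Matches of these motifs can overlap, since GGCAGTT ends and GTTGCCAT begins with the letters GTT. For the other motifs the shares among rises and falls lay closer together. They were 3.09% and 2.74% for the cyclic AMP response element TGACGTCA, 9.29% and 8.54% for the STRA8-type motif CNCCTCAG, and 3.36% and 4.41% for the E2F motif GGCGGGAA. Of the tested genes 9999 matched a promoter by symbol, several with more than 1 start site. Promoters were listed for 34 flagellum genes, of which Tekt1 and Cfap44, named after the search, held the RFX motif, neither window of Ldhc held any of the 5 motifs, and Spo11 and Dmrt1 were not matched. A match of letters is a description and does not show binding.

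Among genes of the piRNA pathway and of mRNA storage most calls were rises, where 26.5% of all genes rose and 24.7% fell. Piwil1 (XLOC_016168, chromosome 5, 128702524 to 128755474, plus strand), the Argonaute-family protein of pachytene piRNAs, stood at 2.90 and 5.61 FPKM in spermatogonia and 176 and 131 in MI spermatocytes (log2 change 4.91, SE 0.53, limma adjusted p = 1.1e-05). Mael, another piRNA factor, stood at 186 and 186, then 3354 and 2759 FPKM (log2 change 4.03, SE 0.49, limma adjusted p = 2.3e-05). Tdrd6, a tudor protein of the chromatoid body, rose by 5.55 and Gtsf1, a cofactor of PIWI proteins, by 4.07. Of 23 piRNA genes 13 rose and 2, Tex15 (−1.78) and Fkbp6 (−1.29), fell (median 1.31), with 8 rises without spermatogonia replicate 1. Tex15 was not called without spermatogonia replicate 2 (adjusted p = 0.106) or without MI replicate 1 (adjusted p = 0.14), and Fkbp6 without spermatogonia replicate 1 (adjusted p = 0.105) or without spermatogonia replicate 2 (adjusted p = 0.156) or without MI replicate 2 (adjusted p = 0.306). Of 30 genes of mRNA storage and translation control 15 rose and 7 fell (median 1.11), the falls being 2 without spermatogonia replicate 2 and 1 without MI replicate 1. Of the Y-box proteins that package stored mRNA, Ybx2 stood at 12.5 and 21.3, then 477 and 500.0 FPKM (log2 change 4.82, SE 0.58, limma adjusted p = 2.3e-05) and Ybx3 at 105 and 176, then 3807 and 2996 (log2 change 4.63, SE 0.44, limma adjusted p = 5.5e-06). Ybx3 was the most abundant gene of both MI libraries. Papolb, the cytoplasmic poly(A) polymerase of the testis, rose by 4.71. Cpeb1, which controls poly(A) tails early in meiosis, fell by 2.19, and Dazl, a translation activator of germ cells, stood at 166 and 271, then 73.5 and 94.9 FPKM (log2 change −1.33, SE 0.43, limma adjusted p = 0.019). Dazl was not called without spermatogonia replicate 2 (adjusted p = 0.152) or without MI replicate 1 (adjusted p = 0.111).

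Sperm tail genes rose without exception in the list, 35 of 35 (median 4.42), where 26.5% of all genes rose. Dnah8, a dynein heavy chain of the tail, stood at 8.03 and 13.9 FPKM in spermatogonia and 482 and 465 in MI spermatocytes (log2 change 5.35, SE 0.54, limma adjusted p = 7.1e-06). Rsph1 of the radial spoke rose by 5.32, Spag6 of the central pair by 5.31 and Cfap70 by 5.35, and the smallest change of the list, in Ropn1, named after its values were seen, was 1.91. Of 25 acrosome genes 19 rose and 0 fell (median 2.37). Zpbp2, which binds the zona pellucida, stood at 1.67 and 2.26, then 107 and 101 FPKM (log2 change 5.15, SE 0.58, limma adjusted p = 1.4e-05), and Spata16, of acrosome assembly, at 7.54 and 13.4, then 371 and 344 (log2 change 5.01, SE 0.52, limma adjusted p = 9.1e-06). Spesp1 rose by 4.94. Both spermatogonia libraries were below both MI libraries in these 3 genes as well.

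Markers of round spermatids rose in 18 of 20 cases with 0 falls (median 2.47), where 26.5% of all genes rose. Their sum was 47.8 and 41.4 FPKM in the spermatogonia libraries and 1009.4 and 1021.9 in the MI libraries. In the MI libraries the sum of 18 late spermatocyte markers was 6527.2 and 4301.5 FPKM. Single genes such as Pgam2 and Ldhc weigh heavily in these sums, which do not measure the shares of the cell types. Pgam2, a muscle and sperm glycolytic enzyme, stood at 12.96 and 10.2, then 522 and 499 FPKM (log2 change 5.35, SE 0.51, limma adjusted p = 5.5e-06), and Acr, the acrosomal protease, at 0.509 and 1.42, then 57.02 and 34.4 (log2 change 4.57, SE 0.57, limma adjusted p = 2.8e-05). Of 16 markers of elongating spermatids 7 rose and 0 fell (median 1.03). Meig1, needed for the sperm tail, rose by 4.63, Odf1, of its outer dense fibres, by 2.61 and Gapdhs, the sperm glyceraldehyde phosphate dehydrogenase, by 2.14. Smcp, of the sperm mitochondrial sheath, stood at 9.81 and 7.57, then 118 and 120.3 FPKM (log2 change 3.64, SE 0.43, limma adjusted p = 1.9e-05). Of the genes that replace histones late in spermatid life, named after their values were seen, Prm2 stood at 20.6 and 16.7, then 6.70 and 28.7 FPKM and Tnp1 at 16.1 and 9.27, then 17.2 and 19.5, and neither was called (limma adjusted p = 0.64 and 0.16). The part of spermatid RNA in these changes was not tested.

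**Figure D3:**
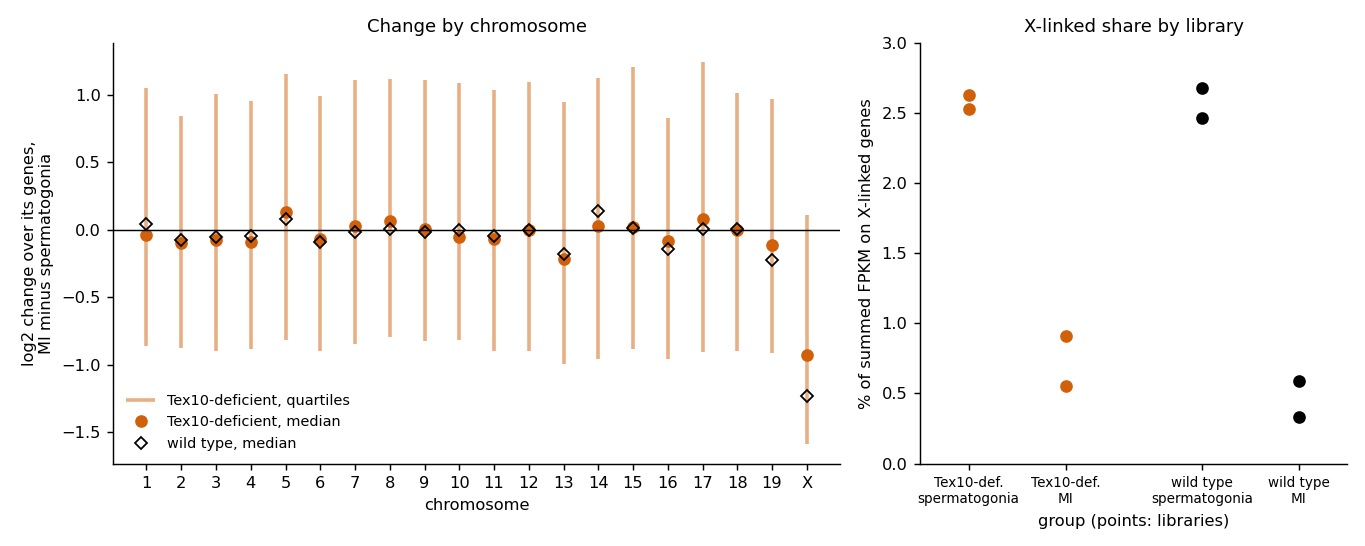
On the left, the median (circle) and quartiles (bar) of the log2 change from Tex10-deficient spermatogonia to MI spermatocytes over the tested genes of each chromosome, with the wild-type median (diamond), and on the right, the percentage of the summed FPKM on X-linked genes in each library. The X has the lowest median, −0.93, and its share of the summed FPKM lies between 2.46% and 2.68% in the 4 spermatogonia libraries and between 0.33% and 0.91% in the 4 MI libraries.

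Genes on the X chromosome were mostly lower in Tex10-deficient MI spermatocytes. Of 503 tested, 244 fell (48.5%) and 69 rose (13.7%), with a median of −0.93, whereas on single autosomes at most 26.9% fell, 23.4% to 30.2% rose and medians ran from −0.214 to 0.135. Without MI replicate 1 the falls were 161 and without MI replicate 2 the rises were 43. The X took 2.53% and 2.63% of the summed FPKM of the spermatogonia libraries and 0.55% and 0.91% of the MI libraries, and X-linked genes at 5 FPKM or more numbered 227 and 226, then 96 and 128. Of 44 X-linked housekeeping genes 41 fell and 0 rose (median −1.75). Huwe1, a ubiquitin ligase, stood at 118 and 136 FPKM in spermatogonia and 38.4 and 48.3 in MI spermatocytes (log2 change −1.53, SE 0.26, limma adjusted p = 0.00033), the membrane linker gene Msn fell by 3.07, the ribosomal protein gene Rps4x by 2.67 and the chromatin remodeller gene Atrx by 2.41. Although it fell, Huwe1 was still among the transcripts above 5 FPKM in both MI libraries.

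A smaller group of X-linked genes rose. Of the 69, 61 were under 1 FPKM in both spermatogonia libraries and 30 carry predicted names. Genes that low in spermatogonia have little room to fall and pass the filter through other libraries, which favours rises. The same share among the rises of all genes is not given here, so the low start is not read as particular to the X. Prame, of a family of cancer and testis antigens with related copies whose reads may be shared, stood at 0.131 and 0.155 FPKM in spermatogonia and 14.4 and 20.8 in MI spermatocytes (log2 change 4.004, SE 0.39, limma adjusted p = 6.2e-06). Tsga8, a testis gene, stood at 0 and 0.302, then 17.2 and 7.56 FPKM (log2 change 3.45, SE 0.45, limma adjusted p = 4.4e-05), and Fam122c at 0 and 0, then 7.83 and 9.20 (log2 change 3.25, SE 0.35, limma adjusted p = 1.1e-05). These X-linked genes were thus nearly or fully listed at 0 in spermatogonia and were present in both MI libraries. The predicted genes 4930595M18Rik (3.63) and Gm7173 (3.82) and the pseudogene Ppp1r2-ps9 (3.76) were the other leading rises. The X-linked kinase anchoring protein genes Akap14 (2.80) and Akap4 (2.30) also rose, and Akap4 was not called without spermatogonia replicate 1 (adjusted p = 0.112) or without MI replicate 2 (adjusted p = 0.144).

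On the Y chromosome 8 single-copy genes had 2 rises and 4 falls (median −0.79), where 26.5% of all genes rose and 24.7% fell. The translation factor gene Eif2s3y fell by 1.39, the helicase gene Ddx3y fell by 2.30 and Uba1y, of ubiquitin activation, fell by 1.61. Zfy1, a zinc finger factor with a role in the meiotic checkpoint, stood at 2.67 and 4.26 FPKM in spermatogonia and 8.06 and 9.22 in MI spermatocytes (log2 change 1.13, SE 0.35, limma adjusted p = 0.016), and its near copy Zfy2 at 2.73 and 4.54, then 6.21 and 11.7 (log2 change 1.07, SE 0.39, limma adjusted p = 0.035). Both rises are small beside those above, reads of the 2 copies may be shared, and neither was called without spermatogonia replicate 1 or MI replicate 2 (adjusted p from 0.0735 to 0.255). Multicopy genes of the X and Y had 8 rises and 8 falls among 21 (median −0.60), with 4 rises without spermatogonia replicate 1 and 5 without spermatogonia replicate 2 or MI replicate 1.

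Many general genes have a germ cell counterpart, often an intronless copy on an autosome, and 16 listed pairs could be tested. Among them is X-linked Hnrnph2 with autosomal Hnrnph1, which is itself a general gene, is counted here as the counterpart and was not called. In 14 the general gene fell, in 12 the counterpart rose, and in 10 both happened. For the 10 pairs with an X-linked general gene, all 10 fell and 7 counterparts rose. Among these falls, the calls of Pgk1, Rpl10, Rpl39 and Cox7b were lost when single libraries were left out. The same holds for Rpl39l among the rises. X-linked Pgk1 stood at 5.53 and 3.003 FPKM in spermatogonia and 1.07 and 1.14 in MI spermatocytes (log2 change −1.28), while Pgk2 reached the levels given above. Pgk1 was not called without spermatogonia replicate 1 (adjusted p = 0.149) or without MI replicate 1 (adjusted p = 0.0755) or without MI replicate 2 (adjusted p = 0.058). On the log2(FPKM + 1) scale the Pgk2 level minus the Pgk1 level was −0.19 and 1.35 in the spermatogonia libraries and 6.70 and 6.60 in the MI libraries. For the pyruvate dehydrogenase genes Pdha2 and X-linked Pdha1 the same difference was −1.58 and −0.97, then 5.85 and 4.41, and for the ribosomal protein genes Rpl10l and X-linked Rpl10 it was −3.24 and −2.56, then 2.69 and 1.29. It changed sign in both replicates for Pdha2 and Rpl10l. Autosomal pairs did so too, with Hspa2 minus Hspa8 at −3.30 and −2.29, then 3.88 and 3.08. The general genes Ldha and Pabpc1 rose together with their counterparts, with Pabpc1 at 197 and 186, then 1793 and 2029 FPKM. Reads from copies of near-identical sequence may be shared within a pair. A list of autosomal counterparts had 17 rises and 0 falls among 22 (median 2.55), where 26.5% of all genes rose and 24.7% fell.

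**Figure D4:**
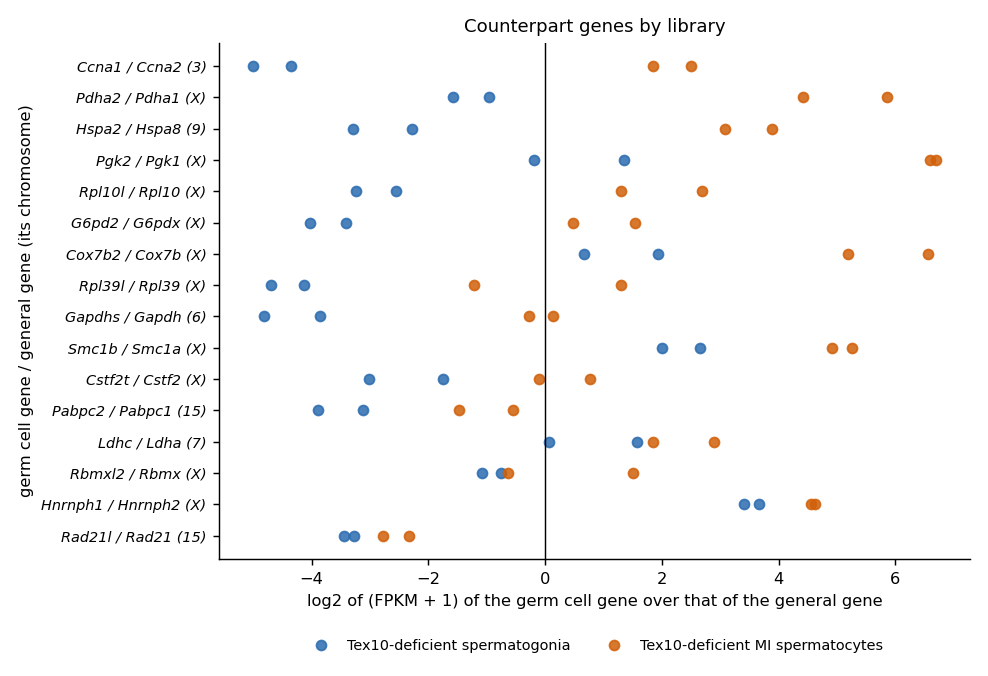
Log2 of the ratio of (FPKM + 1) between the germ cell gene and the general gene of 16 pairs, with the chromosome of the general gene in parentheses. Hnrnph1 is plotted as a germ cell gene but is a general gene. Each point is a Tex10-deficient library, blue for spermatogonia and orange for MI spermatocytes. Values above 0 mean more of the germ cell gene, and for Ccna1, Pdha2, Hspa2, Rpl10l and G6pd2 both libraries lie below 0 in spermatogonia and above 0 in MI spermatocytes.

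With all libraries in the fit, cytosolic ribosomal protein genes fell more often than all genes, of which 24.7% fell, but this excess rests on single libraries. The count for the Tex10 complex was too small to set apart from that share. Of the 7 genes of the Tex10 complex 2 fell and 0 rose (median −0.32), and 1 fell without spermatogonia replicate 2 or MI replicate 2. Las1l, an X-linked nuclease, stood at 9.25 and 10.6 FPKM in spermatogonia and 2.93 and 2.24 in MI spermatocytes (log2 change −1.61, SE 0.28, limma adjusted p = 0.00034), and Nol9, its kinase partner, at 19.4 and 25.6, then 11.9 and 11.2 (log2 change −0.89, SE 0.26, limma adjusted p = 0.012). Nol9 was not called without spermatogonia replicate 2 (adjusted p = 0.0957) or without MI replicate 2 (adjusted p = 0.0508). Of 42 nucleolar and ribosome biogenesis genes 15 fell and 6 rose (median −0.34), with 9 falls without spermatogonia replicate 1 and 3 rises without spermatogonia replicate 2 or MI replicate 1. Ncl, nucleolin, stood at 202 and 273, then 56.4 and 62.3 FPKM (log2 change −1.97, SE 0.34, limma adjusted p = 0.00034) and X-linked Dkc1, of the pseudouridine synthase complex, fell by 2.71. Rrp1 ran the other way, at 36.7 and 33.9, then 239 and 132 FPKM (log2 change 2.30, SE 0.32, limma adjusted p = 8.1e-05). Cytosolic ribosomal protein genes had 34 falls and 2 rises among 73 (median −0.88), which was 13 falls without spermatogonia replicate 1, 12 without MI replicate 2 and 55 under quantile normalization. The 2 rises, Rpl11 (0.67) and Rps25 (0.83), changed sign under quantile normalization and were not called when any 1 of the 4 Tex10-deficient libraries was left out. Processed copies of these genes are frequent in the genome and may share their reads.

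Histone and chromatin genes had 6 rises and 9 falls among 26 (median −0.29), with 3 rises under quantile normalization, where 26.5% of all genes rose and 24.7% fell. Hist1h1t, the testis linker histone of spermatocytes, stood at 30.95 and 22.7 FPKM in spermatogonia and 399 and 191 in MI spermatocytes (log2 change 3.33, SE 0.36, limma adjusted p = 1.2e-05), and Hils1, a linker histone-like protein of spermatids, at 0.585 and 0.952, then 19.6 and 27.8 (log2 change 3.79, SE 0.47, limma adjusted p = 2.9e-05). H2afz, the variant H2A.Z, rose by 1.51, and was not called under quantile normalization (log2 change 0.35, limma adjusted p = 0.433). Hist1h2aa, a testis H2A variant, was abundant in both cell types and fell from 4185 and 5098 to 1178 and 1021 FPKM (log2 change −2.07, SE 0.51, limma adjusted p = 0.0041).

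Markers of leukocytes were present in the Tex10-deficient spermatogonia libraries and low in the MI libraries. Of all genes tested 24.7% fell and 26.5% rose. Summed over 18 myeloid markers the level was 558.4 and 348.9 FPKM in spermatogonia and 24.4 and 20.3 in MI spermatocytes, and 17 fell and 1 rose (median −3.42). Of 16 listed markers of T and NK lymphocytes, 7 were in the table. Over these 7 the summed level was 136.1 and 112.4, then 3.2 and 1.8 FPKM, with Ifng listed at 0 in both MI libraries. All 7 fell (median −3.89). Markers this low in the MI libraries pass the filter mostly through other libraries, which favours falls, so nothing is read from that count. Lyz2, the lysozyme of macrophages, stood at 67.8 and 54.1 FPKM in spermatogonia and 1.52 and 0.425 in MI spermatocytes (log2 change −5.02, SE 0.42, limma adjusted p = 4.5e-06), Cd52, a surface protein of leukocytes, at 51.3 and 38.7, then 0.266 and 0, and Il2rb, a receptor chain of T and NK cells, at 48.8 and 22.5, then 0.299 and 0.0840. The exception was Aif1 (1.50), which was not called without spermatogonia replicate 2 (adjusted p = 0.18) or without MI replicate 1 (adjusted p = 0.0615) or without MI replicate 2 (adjusted p = 0.0598). Myoid and endothelial markers had 6 falls among 11 (median −1.29, sums of 458.4 and 232.1, then 85.8 and 157.1 FPKM), and 3 without MI replicate 1. Sertoli markers summed to 46.1 and 42.9, then 17.0 and 26.2 FPKM with 0 of 7 called, and Leydig markers to 69.2 and 83.8, then 29.6 and 79.5 with 0 of 10 called. Under quantile normalization 2 Sertoli markers and 1 Leydig marker fell, and with only the libraries compared 2 of each fell. None of the 7 erythroid genes listed was in the table. Immediate early genes fell in 13 of 20 cases and rose in 1 (median −1.71), with 4 falls without spermatogonia replicate 1 and 7 without MI replicate 1. Junb stood at 136 and 51.6 FPKM in spermatogonia and 6.71 and 8.24 in MI spermatocytes (log2 change −3.33, SE 0.56, limma adjusted p = 0.0003), and the chaperone gene Dnajb1 rose by 2.15. The part of other cell types in the falls described for spermatogonial, replication and ribosomal genes was not tested.

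Set beside the wild type, most genes called without Tex10 were called in the same direction. The wild-type step had 6800 calls (51.9%), and 5506 genes were called in the same direction in both, which is 82.0% of the Tex10-deficient and 81.0% of the wild-type calls. Across all genes tested the 2 steps, which share no library, had a Pearson r of 0.933 and a Spearman rho of 0.916, over genes that are not independent. The difference of the steps was tested for each gene, and 3 of 13099 (0.0229%) were called. At an unadjusted p under 0.05 there were 723 (287 higher and 436 lower). That is near the share which such a threshold gives where nothing differs. The median interval of a single gene's difference reached 1.11 on the log2 scale to either side before adjustment over all genes. The called difference nearest to 0 was −2.62, for Cnst, and larger ones were not always called, as for Prame below.

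The 3 genes had smaller or opposite steps without Tex10. Cnst, which encodes consortin, a protein of connexin transport, stood at 5.39 and 7.25 FPKM in Tex10-deficient spermatogonia and 6.91 and 6.31 in MI spermatocytes, against 4.33 and 4.56, then 28.7 and 40.6 in the wild type (difference −2.62, limma adjusted p = 0.048). The ubiquitin ligase gene Rnf125 stood at 9.54 and 9.91, then 13.1 and 12.5 FPKM against 4.89 and 3.19, then 37.6 and 47.2 (difference −2.76, limma adjusted p = 0.048). Pxdc1 fell without Tex10, from 3.22 and 2.04 to 0.475 and 0.756 FPKM, and was higher in wild-type MI spermatocytes at 5.62 and 8.81 than in wild-type spermatogonia at 1.15 and 0.493 (difference −3.32, limma adjusted p = 0.048). The call of the Pxdc1 fall was lost without Tex10-deficient spermatogonia replicate 1 (log2 change −0.92) or MI replicate 1 (log2 change −1.03). In each of the 3 genes, both Tex10-deficient libraries lay above both wild-type libraries in spermatogonia and below both in MI spermatocytes, so that both cell types enter the difference. All 3 calls of the difference rest on few libraries, since leaving out single libraries changed which genes were called.

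**Figure D5:**
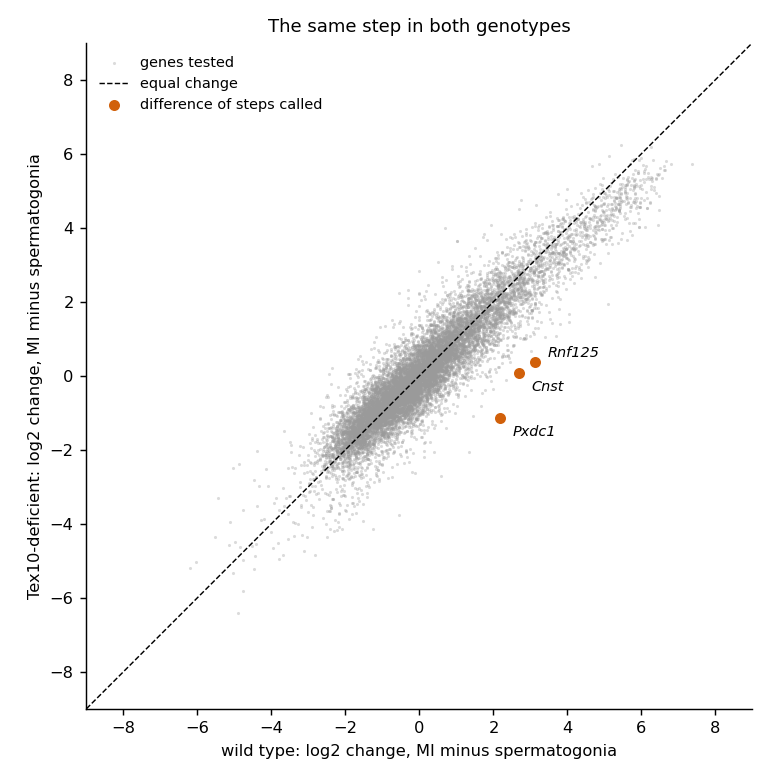
Log2 change from spermatogonia to MI spermatocytes of each gene tested, without Tex10 (vertical) against wild type (horizontal), 1 grey point per gene, with the dashed line of equal change. The points spread along the line (Pearson r 0.933), and the 3 genes whose difference was called, Cnst, Rnf125 and Pxdc1 (orange), lie below it.

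No member of the gene lists was called for the difference of the steps, but within some lists most differences had the same sign, where 6554 of 13099 genes tested had a difference above 0. Over all genes tested, the slope of the Tex10-deficient on the wild-type change was 0.879. By itself, a slope below 1 places differences of rising lists below 0 and those of falling lists above 0. Whether any list, here or below, departs from that slope was not tested. Late spermatocyte markers had a difference below 0 in 14 of 18 cases (median −0.46) and sperm tail genes in 25 of 35 (median −0.38). Their median rises were 3.83 and 4.42 without Tex10, and 4.33 and 4.92 in the wild type. The median of the late spermatocyte list was −0.21 without Tex10-deficient MI replicate 2 and −0.72 without replicate 1, and that of the tail list −0.17 without wild-type MI replicate 2 and −0.59 without replicate 1. Elongating spermatid markers had a difference above 0 in 13 of 16 cases (median 0.64, and 0.29 without Tex10-deficient or wild-type MI replicate 2). Smcp rose by 3.64 without Tex10 and changed by 1.01 in the wild type, from 20.9 and 26.5 to 52.1 and 44.9 FPKM (difference 2.63, limma adjusted p = 0.31). The elongating markers summed to 400.8 and 394.4 FPKM in Tex10-deficient and 231.7 and 196.6 in wild-type MI spermatocytes, the round spermatid markers to 1009.4 and 1021.9 against 1148.8 and 1404.4.

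Differences of other lists lay mostly above 0 as well. They did so for 29 of 35 DNA replication genes (median 0.25), 12 of 16 crossover genes (median 0.22), 18 of 21 multicopy genes of the X and Y (median 0.45) and 7 of 8 single-copy Y genes (median 0.85). The median of the replication list was 0.09 without wild-type MI replicate 2, and that of the crossover list was −0.05, with 7 genes above 0, without Tex10-deficient spermatogonia replicate 1. The medians of the multicopy list were 0.24 and 0.28 without wild-type and Tex10-deficient MI replicate 2. The leukocyte lists went opposite ways. Of 18 myeloid markers 15 had a difference above 0 (median 0.52, and 0.13 with 9 of 18 above 0 without wild-type spermatogonia replicate 2), and of 7 lymphocyte markers 6 had a difference below 0 (median −1.20, and −0.48 without the same library). In spermatogonia the myeloid markers summed to 558.4 and 348.9 FPKM without Tex10 and 504.7 and 886.1 in the wild type, and the lymphocyte markers to 136.1 and 112.4 against 95.1 and 27.5. The myeloid sums of the genotypes overlapped, and both lymphocyte sums were higher without Tex10.

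Of 503 X-linked genes 0 were called for the difference. At an unadjusted p under 0.05, 47 were higher and 3 lower, against 287 and 436 of all 13099 genes tested. A difference above 0 was found for 367 of the 503 (73.0%, median 0.29), against 49.1% of autosomal genes. The share rests on single MI libraries, being 54.5% (median 0.05) without Tex10-deficient replicate 2, 57.7% (median 0.11) without wild-type replicate 2, and 80.5% and 82.3% without Tex10-deficient and wild-type replicate 1. The wild-type step had 15 X-linked rises, all 15 among the 69 without Tex10, and 272 falls, of which 225 were shared. The 69 genes had a median change of 1.77 without Tex10 and of 0.74 in the wild type, and 62 had both Tex10-deficient MI libraries above both wild-type ones. Since the 69 were chosen as rises in the Tex10-deficient libraries, that choice favours higher values there, and nothing is read from these values. Prame held 0.581 and 0.735 FPKM in wild-type MI spermatocytes (difference 3.32, limma adjusted p = 0.087, the smallest among X-linked genes). X-linked genes took 0.59% and 0.33% of the summed FPKM in wild-type MI spermatocytes and, as given above, 0.55% and 0.91% without Tex10, so that the groups overlapped.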

How the data were processed

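PolyA RNA of 16 libraries (2 per cell type and genotype) was sequenced. Per the submitters' processing notes, STAR 2.7.6a and Cufflinks 2.2.1 were used with mm10, besides FastQC 0.10.1, cutadapt and Trim Galore 0.6.3. The sources used here do not give the annotation, the gene filter, any scaling between libraries or the use of strand, so a gene and an antisense partner cannot be told apart. The deposited values were FPKM to which 1 had been added, as judged from the values, and 1 was subtracted. Of the values, 3.33% were then 0. Read depth is unknown, so no counting intervals are given.

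Of 13101 genes, the 13099 that reached 1 FPKM in 2 or more libraries were tested. The values, as log2(FPKM + 1), were fitted in limma 3.58.1 under R 4.3.3 (lmFit, eBayes with a trend), in 1 fit of 8 groups with 8 residual degrees of freedom. Contrasts were MI spermatocytes minus spermatogonia without Tex10, the same in the wild type, and their difference, with Benjamini-Hochberg adjustment over all genes and calls at an adjusted p under 0.05. Positions are from GENCODE M21 for 12572 genes and chromosomes of a further 499 from RefSeq. The fit was tested on simulated data.

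Members, gene lists and alternatives were chosen with earlier results of these data known. Named genes are Tex10 and its partners, the 12 largest called rises and falls without overlap, with at least 5 FPKM and no predicted name, up to 4 called members of each list by change, 3 by level and 3 against the list's direction, 6 X-linked rises, all pairs, genes called for the difference and genes of printed promoters. Others are said to be chosen after their values were seen. Alternatives were pseudocounts of 0.1 and 5, no filter or 5 FPKM, median-of-ratios or quantile scaling, no trend, array weights, no MII libraries, a replicate block, only the libraries compared, and each of the 8 libraries left out in turn.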

Additional observations from a re-analysis of the deposited data

Results flagged for a closer look

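The step from spermatogonia to MI spermatocytes differed between the genotypes for 3 genes by a test of the difference itself. The Tex10-deficient minus the wild-type log2 change was −2.62 for Cnst, −3.32 for Pxdc1 and −2.76 for Rnf125 (limma adjusted p = 0.0478 for each). Both wild-type MI libraries held more of each gene than both Tex10-deficient MI libraries. The difference was below 0 for all 3 under each of the 19 alternatives. The call was lost in 37 of the 57 combinations of gene and alternative, with an adjusted p of up to 0.525 when single libraries were left out.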

How the results depend on the processing

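The 6711 calls of the Tex10-deficient step and the 6800 of the wild-type step stayed within 1.5 times under every alternative for which they were counted. Leaving out a library of the other genotype was not among these. Without Tex10, leaving out 1 of its 4 libraries gave 2742 to 3091 rises and 2066 to 2658 falls. Median-of-ratios scaling gave 3100 rises and 3973 falls, quantile normalization 3205 and 3992, and a pseudocount of 0.1 3551 and 2793. The count of 3 for the difference of the steps was 0 with a pseudocount of 0.1, without a trend and with only the libraries compared, 5 with array weights, 7 under quantile normalization and 11 with a pseudocount of 5. It ran from 0 to 14 when single libraries were left out, and the cause was not tested. Among named genes, Rpl11 and Rps25 changed sign under quantile normalization (−0.37 and −0.20), and 169 of 217 called named genes kept call and direction under every alternative. Deviations of same-numbered libraries correlated by 0.085 between the compared cell types without Tex10 and 0.143 in the wild type, and by −0.082 to 0.418 over all 12 pairs of groups within a genotype. With only 2 numbers and no label that ties them, the numbers were not taken to pair the libraries. With the replicate number as a block within genotype, 7259 genes were called without Tex10, 7335 in the wild type and 0 for the difference. Groups of 2 libraries limit what can be seen for single genes.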

Other observations

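Some genes went from a level under 1 FPKM to 10 FPKM or more, or the reverse. Without Tex10, 161 genes were under 1 FPKM in both spermatogonia libraries and at 10 FPKM or more in both MI libraries, 4 of them on the X chromosome. All 161 were called, which the rule nearly fixes in advance, since it picks large changes in the same libraries. In the wild type the same rule found 250, and 92 were in both sets, which is 57.1% of the Tex10-deficient and 36.8% of the wild-type set. In the other direction 36 genes were found without Tex10 and 19 in the wild type, with 10 in both. Genes near a cut-off can fall on either side of it, and the difference of these counts between the genotypes was not tested.

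Targets of p53 had 3 rises and 9 falls among 14 in the Tex10-deficient step (median −1.28), and 5 falls without MI replicate 1. Mdm2, which restrains p53, stood at 51.7 and 70.5 FPKM in spermatogonia and 258 and 289.6 in MI spermatocytes (log2 change 2.16, SE 0.34, limma adjusted p = 0.00021). Plk3, a stress-response kinase, stood at 8.63 and 6.91, then 0.526 and 0.348 FPKM (log2 change −2.61, SE 0.28, limma adjusted p = 1.1e-05) and Ccng1, a cyclin induced by p53, at 35.7 and 43.9, then 5.69 and 13.3 (log2 change −2.05, SE 0.46, limma adjusted p = 0.0022). The groups did not overlap in these 3 genes. Of all genes 26.5% rose and 24.7% fell. Zmat3 rose by 1.02, and its call ended in 6 of the alternatives.

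Genes often used as references were called about as often as all genes, of which 51.2% were called, with 4 rises and 7 falls among 21 (median −0.55), and 2 rises without spermatogonia replicate 1 or 2 and 1 without MI replicate 1. Actb, cytoplasmic actin, fell by 2.35, Gapdh fell by 2.13 and B2m, of the class I histocompatibility complex, fell by 3.77, while Tbp, the TATA-binding protein, rose by 1.71. The noncoding RNA gene Rmrp led both spermatogonia libraries at 12424.8 and 15527.6 FPKM.

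Of genes called in both genotypes 4 had opposite directions, B4galnt1, Diap1, Pbx3 and Pxdc1. Apart from Pxdc1 these were named after their values were seen, and their difference between genotypes was not called. The call of Pxdc1 without Tex10 was lost when single libraries were left out, as given above.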
